A study of Mus musculus with 2 samples.

Results

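The natural killer (NK) cells of mouse bone marrow were described in 2 single-cell libraries, 1 from HFD marrow and 1 from ND marrow. They were picked out by their transcripts. A cell was taken as NK when it held at least 1 unique molecular identifier (UMI, 1 captured mRNA molecule) of Ncr1 or Klrb1c and at least 1 of Nkg7. It could hold at most 1 of the 3 genes Cd3d, Cd3e and Cd3g, no Siglech UMI and fewer than 2 Cd79a UMIs. This gate took 693 of 29952 cells that passed the cell filter, 242 of 15650 in the HFD library and 451 of 14302 in the ND library. The HFD group was male C57B/6 wild-type mice given a diet of 60% fat for 16 weeks, and the ND group was male C57B/6 wild-type mice given normal chow over the same time. The labels describe the animals as young when the diets began, and they do not say how many animals gave each library, whether animals were pooled or whether the marrow was sorted. With 1 library per diet there is no replicate and no test, and diet and library cannot be told apart. Intervals are 95% exact intervals that cover counting error only, and they treat UMIs of 1 cell as independent.

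NK cells are innate lymphocytes that kill infected, transformed or otherwise stressed cells without a rearranged antigen receptor. A balance of inhibitory receptors that bind MHC class I and activating receptors that bind stress or viral ligands decides whether a cell releases perforin and granzymes. In the mouse they develop in the marrow from CD27-bearing immature cells to CD11b- and KLRG1-bearing mature cells that leave for the blood. The T-box factors Eomes and T-bet (Tbx21) are needed for this course, and IL-15, received through Il2rb and Il2rg, keeps the cells alive.

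The libraries held 17282 HFD and 16817 ND cells with 117773643 RNA UMIs in HFD and 117999042 in ND. Cells with fewer than 200 genes or more than 25% mitochondrial UMIs were removed, which took 9.44% of HFD and 15% of ND cells. Gated NK cells had a median of 3371.5 UMIs in HFD and 3352 in ND, and their median mitochondrial share was 6.72% in HFD and 7.10% in ND. NK depth was thus close between the diets, while the other kept cells had a median of 4231.5 UMIs in HFD and 4704 in ND. The same cell index occurred in both libraries for 329 cells, of which 0 were NK cells.

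The label held up against genes that the gate did not use. Gzma, a granule protease, stood highest among the 20 genes with the largest level in NK cells over all other kept cells, at 114.5-fold, and was seen in 50.5% of NK cells. Eomes was 25.6-fold over the other cells and was seen in 52.7%. Il2rb, the shared receptor chain for IL-2 and IL-15, was in 94.5% of the cells and 38.2-fold over the rest. Klrk1 (NKG2D, which binds stress ligands) was in 88.3% and 30.2-fold over the rest. The rest of the 20 were receptor genes of the NK complex (Klra8, Klra4, Klra9, Klri2, Klre1, Klrb1b, Klrd1, Klrc1 and the gate gene Klrb1c), the gate gene Ncr1, the chemokines Xcl1 and Ccl5, the granule protein gene Ctsw, and Ms4a4b, Gimap4 and AW112010. These folds follow from the choice of the cells and are given as a description.

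T cells of the same marrow gave the nearest comparison. CD8 T cells were taken as cells with at least 2 Cd3 genes, Cd8a or Cd8b1 and no Cd4 (256 HFD and 245 ND cells). Gzma reached 1477 summed UMIs scaled to 1000000 (CPM) in HFD and 1387 in ND NK cells. In CD8 T cells it was 60.4 CPM in HFD and 10.01 in ND, from 74 HFD and 11 ND UMIs. Eomes was at 349 CPM in HFD and 353 in ND NK cells, against 191 CPM in HFD and 117 CPM in ND CD8 T cells. Trac, the constant part of the T cell receptor alpha chain, was at 55.2 CPM in HFD and 37.1 in ND NK cells. In CD8 T cells it was at 1191 CPM in HFD and 1130 in ND. Trbc1, a beta chain constant gene, was at 349.5 CPM in HFD and 343.1 in ND NK cells. In CD8 T cells Trbc1 was at 445.2 CPM in HFD and 460.6 in ND. Trbc2 was at 492.8 CPM in HFD and 330.1 in ND NK cells, against 2040 in HFD and 1822 in ND CD8 T cells. Cd3e was at 33.7 CPM in HFD and 14.7 CPM in ND NK cells, against 735 in HFD and 640 in ND CD8 T cells. Both gates used Cd3e, so that contrast follows from the choice of the cells.

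**Figure D1:**
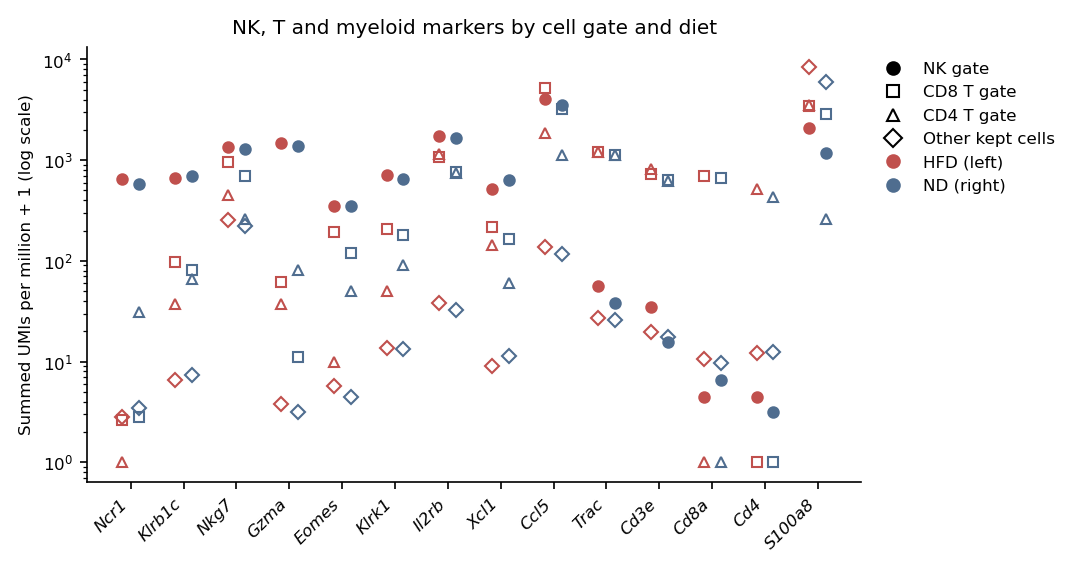
Summed CPM plus 1 (log axis) of NK, T cell and neutrophil markers in the NK gate (filled circles), CD8 T gate (squares), CD4 T gate (triangles) and all other kept cells (diamonds), HFD left of ND. Ncr1, Gzma and Eomes are highest in the NK gate of both libraries, and Cd3e, Cd8a and Cd4 in the T cell gates. Cd3e is at 33.7 CPM in HFD and 14.7 CPM in ND NK cells. Ncr1, Cd3e, Cd8a and Cd4 were used by the gates, so their order follows from the choice of the cells.

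Cells at the receptor edge of the gate carried fewer of the other NK genes. With exactly 1 UMI of Ncr1 and Klrb1c together, 33 HFD cells had a median of 7 and 40 ND cells a median of 3.5 of 17 other NK genes. Mpo, a neutrophil precursor gene, was in 33.3% of these HFD and 52.5% of these ND cells. With 2 or more such UMIs, 209 HFD cells had a median of 11 and 411 ND cells a median of 12 of the 17 genes. Just outside, cells with Nkg7 but neither receptor (3177 HFD and 2880 ND) had a median of 2 of the 17 genes in each library, and Mpo was in 73.0% of HFD and 73.1% of ND cells. Cells that met the rest of the gate but held 2 or 3 Cd3 genes (235 HFD and 250 ND) had Trac in 76.6% of HFD and 70.4% of ND cells, and Gzma in 0.851% of HFD and 4.40% of ND cells. They carried many of the other NK genes, with a median of 9 of the 17 in HFD and 8 in ND. At least 5 of the 17 were in 224 of these HFD and 238 of these ND cells. Eomes was in 43.0% of these HFD and 37.2% of these ND cells, and Klrd1 in 88.1% and 85.6%. Of the gated cells, 34 HFD and 55 ND cells held 1 Cd3 gene, and Trac was in 55.9% of these HFD and 25.5% of these ND cells.

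A minority of gated cells also carried genes of another marrow lineage. At least 3 markers of 1 of 10 lists (all 12 other cell type lists but those of T cells and group 2 innate lymphoid cells) were found in 76 HFD and 120 ND gated cells, which held 44.2% of all HFD and 49.1% of all ND NK UMIs. Neutrophil markers were met in 50 HFD cells (20.7%) and 50 ND cells (11.1%), and the summed list stood at 8018 CPM in HFD and 6242 CPM in ND. Basophil, mast cell and eosinophil markers were met in 5 HFD (2.07%) and 27 ND cells (5.99%), with the list at 2828 CPM in HFD and 4866 CPM in ND. Erythroid markers were met in 3 HFD and 17 ND cells. Monocyte and macrophage markers were met in 27 HFD and 47 ND cells, stem and progenitor markers in 10 HFD and 23 ND, and dendritic markers in 15 HFD and 20 ND. B cell and stromal markers were met in 0 cells of either library. Every ratio below is therefore given for all gated cells and, where it matters, also for the 166 HFD and 331 ND cells without such markers, called lineage-clean cells here, a set chosen after the data were seen. The part that other-lineage cells play in a ratio was not tested beyond that pair of values.

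Group 2 innate lymphoid cells and T cells share genes with NK cells, so their lists were read separately. At least 3 of 10 group 2 markers were found in 39 HFD (16.1%) and 56 ND (12.4%) gated cells, with Areg and Ptgdr2 at 0 UMIs. At least 3 of 12 T cell markers were found in 40 HFD (16.5%) and 60 ND (13.3%) cells. All 7 measured T cell markers had log2 ratios, HFD over ND, above 0 in the gate (median 0.58). The list stood at 1030 CPM in HFD and 800 CPM in ND. Lineage-clean cells were not picked against T cell markers, and there 4 of 7 lay above 0 (median 0.22). The part of T cells in the ratios below was not tested beyond leaving out cells with such markers.

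NK cells made up a smaller share of HFD marrow. They were 1.55% of kept HFD cells (242 of 15650, interval 1.36 to 1.75%) and 3.15% of kept ND cells (451 of 14302, 2.87 to 3.45%), a ratio of 0.490 (0.418 to 0.575). Lineage-clean cells were 1.06% in HFD and 2.31% in ND, a ratio of 0.458 (0.378 to 0.554), so the ratio was about as low without cells of mixed markers. Cells with at least 5 of the 17 other NK genes numbered 229 in HFD and 426 in ND, a ratio of shares of 0.491. The 256 HFD and 245 ND CD8 T cells gave a ratio of 0.955 (0.798 to 1.14), with even shares inside its interval. CD4 T cells numbered 61 HFD and 45 ND (ratio of shares 1.24, 0.829 to 1.86) and B cells with at least 2 Cd79a UMIs 1784 HFD and 1431 ND (1.14, 1.06 to 1.22). Of NK and T cells together, NK cells were 43.3% in HFD (39.1 to 47.5%) and 60.9% in ND (57.2 to 64.4%). Shares sum to a fixed total, and the number of cells in the marrow was not measured.

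**Figure D2:**
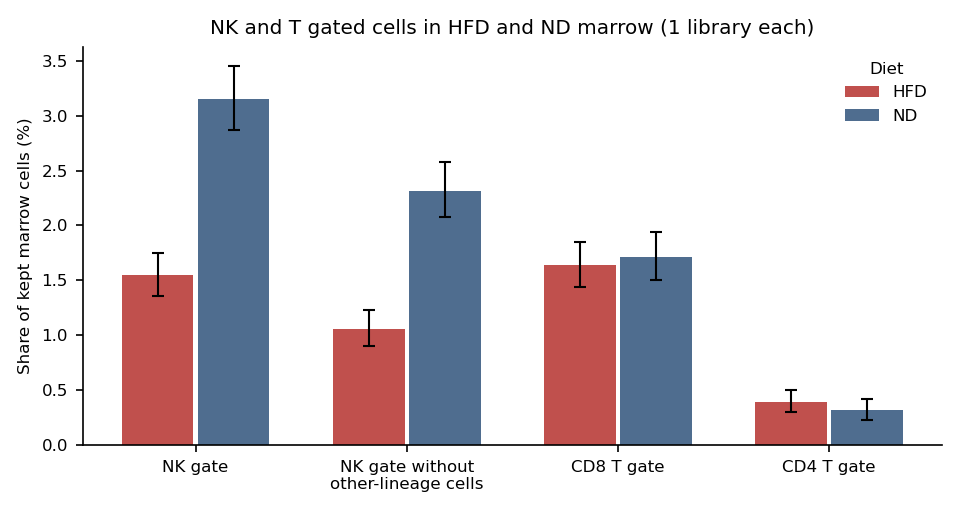
Share of kept marrow cells in percent for the NK gate, the NK gate without other-lineage cells, the CD8 T gate and the CD4 T gate, HFD left of ND; bars are the single library's share and whiskers the 95% Clopper-Pearson interval (counting error only). The NK bars are 1.55% in HFD and 3.15% in ND, while the intervals of both T cell gates overlap between the diets.

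Gene levels were compared as CPM within the NK gate, HFD over ND. A gene is called higher or lower here when it differed by 1.5-fold or more and its counting interval did not span 0 on the log2 scale, among genes with at least 20 UMIs over both libraries. Over all 9576 genes so measured, 3.25% were higher and 3.62% lower in HFD, with a median log2 ratio of 0.0047. In lineage-clean cells 7901 genes were measured, of which 4.11% were higher and 2.3% lower, with a median log2 ratio of 0.0216.

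Klra4 had the lowest log2 ratio of the activating receptor genes called lower in HFD NK cells. Of 22 measured activating receptor genes, 0 were higher and 3 lower in HFD, Klra4, Fcgr3 and Crtam, and the list's median log2 ratio was 0.085. The same 3 were lower in lineage-clean cells (median log2 ratio -0.108). Klra4 encodes Ly49D, an activating receptor that signals through DAP12 (Tyrobp). It had 248 UMIs in HFD and 1107 in ND NK cells, or 214 CPM in HFD and 477 CPM in ND, a log2 ratio of -1.16 (-1.36 to -0.96). In lineage-clean cells it had 197 HFD and 924 ND UMIs and a log2 ratio of -1.36 (-1.59 to -1.14), and it was there the lowest of the genes ranked. The most heavily loaded cell held 6.05% of the HFD and 2.62% of the ND UMIs, so no single cell carried it.

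The share of cells with Klra4 was lower in HFD as well. With every cell thinned to 1000 UMIs, which no gated NK cell fell short of, Klra4 was found in 16.1% of HFD (11.7 to 21.4%) and 25.1% of ND NK cells (21.1 to 29.3%). Unthinned, the shares were 21.1% in HFD and 32.4% in ND. Other kept cells, which should lack it, showed it in 0.0136% of 14670 HFD and 0.107% of 13060 ND cells that reached that depth. Their own level was also lower, at 24 UMIs in HFD against 96 in ND.

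Klra8 (Ly49H), the activating receptor that binds the m157 protein of mouse cytomegalovirus and also signals through DAP12, had 819 HFD and 1897 ND UMIs, or 707 CPM in HFD and 818 CPM in ND, a log2 ratio of -0.21 (-0.33 to -0.09). The log2 ratio in lineage-clean cells was -0.50 (-0.64 to -0.36), short of 1.5-fold. Klra8 was found in 26.4% of HFD (21.0 to 32.5%) and 33.5% of ND cells (29.1 to 38.1%) after thinning, against 0.0477% of HFD and 0.145% of ND other kept cells. The pair was read together in each cell. Among cells with Klra8, 46.9% of 64 HFD and 49.0% of 151 ND cells also had Klra4. Among cells without Klra8, Klra4 was in 5.06% of HFD and 13% of ND cells, from 9 HFD and 39 ND cells. Both genes were in 30 HFD and 74 ND cells. In lineage-clean cells Klra4 was in 45.7% of HFD and 52.5% of ND cells with Klra8, and in 5.83% of HFD and 16.8% of ND cells without it.

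The 250 bases before the start site are given for both genes, since both lie in the NK gene complex on chromosome 6 and their ratios were unequal. They are RefSeq sequence of build GRCm38.p6, from chr6:130067272-130067521 for Klra4 and chr6:130129899-130130148 for Klra8, both read 5′ to 3′ on the minus strand, with a motif match in capitals.
Klra4: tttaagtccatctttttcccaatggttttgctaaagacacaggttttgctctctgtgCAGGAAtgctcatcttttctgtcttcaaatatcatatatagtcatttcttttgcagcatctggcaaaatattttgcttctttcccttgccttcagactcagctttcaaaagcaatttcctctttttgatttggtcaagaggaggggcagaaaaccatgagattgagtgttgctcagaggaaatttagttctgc
Klra8: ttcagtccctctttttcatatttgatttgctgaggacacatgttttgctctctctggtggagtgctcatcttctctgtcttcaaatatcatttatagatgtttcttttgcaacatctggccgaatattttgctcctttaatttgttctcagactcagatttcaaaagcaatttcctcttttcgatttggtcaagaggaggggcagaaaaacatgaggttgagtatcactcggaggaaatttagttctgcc
Aligned end to end with gaps allowed, the pair is 84.6% identical over the aligned columns, while Klra4 and the Klra5 promoter are 67.9% identical. Both strands were searched for a RUNX motif (TGTGGT), a T-box motif (GGTGTGA), an Ets motif (CAGGAA) and an interferon response motif (GAAA, any 2 bases, GAAA). Of all 27025 tabulated promoters, 14.2%, 3.31%, 25.4% and 3.04% hold them over a window of the same length. Klra4 has 1 Ets match 193 to 188 bases before its start, and Klra8 has none of the 4.

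Other Ly49 genes had smaller or sparser differences. Klra3 had 177 HFD and 443 ND UMIs (log2 -0.32, -0.58 to -0.07), Klra7 262 HFD and 584 ND (-0.15) and Klra9 259 HFD and 557 ND (-0.10), all inhibitory receptors for MHC class I. Klra1 (Ly49A) had 71 HFD and 173 ND UMIs, a log2 ratio of -0.28, and was called lower in lineage-clean cells alone (46 HFD and 140 ND UMIs, -0.74, -1.25 to -0.25). Klra5 was higher at 23 HFD and 21 ND UMIs (log2 ratio 1.13, 0.21 to 2.06), but 1 cell held 39.1% of its HFD UMIs. Klra6 was higher in all gated cells (41 HFD and 53 ND UMIs, log2 ratio 0.63) and at -0.07 in lineage-clean cells. Taken per cell after thinning, HFD NK cells had a mean of 1.03 Ly49 genes and ND cells 1.20, and no Ly49 gene was seen in 50.8% of HFD and 45% of ND cells. These genes are near copies: of the 50-base words in the last 500 bases of the transcript, 42.4% for Klra3, 40.8% for Klra9, 13.1% for Klra8, 4.66% for Klra4 and 0% for Klra5 and Klra7 also occur in another Ly49 gene. The labels do not say how the pipeline assigned such reads, and single Ly49 levels are therefore uncertain, most of all for Klra3 and Klra9.

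Fcgr3, the CD16 receptor for IgG that triggers killing of antibody-coated cells, had 53 UMIs in HFD and 206 in ND NK cells, or 45.7 CPM in HFD and 88.8 CPM in ND (log2 ratio -0.96, -1.42 to -0.52). It was lower in lineage-clean cells too (26 HFD and 86 ND UMIs, log2 ratio -0.86), while CD8 T cells and the other kept cells stood at 0.20 each. Neutrophils and monocytes also express it, and it was found in 17.6% of HFD and 16.1% of ND other kept cells after thinning, above the 5.37% of HFD and 6.65% of ND NK cells. Crtam, an adhesion receptor of activated cytotoxic cells, had 21 HFD and 86 ND UMIs (log2 ratio -1.03, -1.79 to -0.33). Receptors not called included Klrk1 (820 HFD and 1504 ND UMIs, log2 ratio 0.13), Klre1 (646 HFD and 1168 ND, 0.15), the gate genes Ncr1 (750 HFD and 1331 ND, 0.17) and Klrb1c (769 HFD and 1598 ND, -0.05), Cd226 (92 HFD and 159 ND, 0.21) and Slamf7 (147 HFD and 235 ND, 0.32).

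Of 17 measured inhibitory receptors, 3 were higher in HFD (Klra5, Klra6, Klrg1) and 1 lower (Lair1), with a median log2 ratio of 0.096. Klrg1 encodes a receptor for cadherins that is gained late in NK maturation. It had 52 UMIs in HFD and 27 in ND NK cells, or 44.9 CPM in HFD and 11.6 CPM in ND, a log2 ratio of 1.95 (1.25 to 2.67), and 1.80 (0.98 to 2.65) in lineage-clean cells from 38 HFD and 20 ND UMIs. Klrg1 was in 7.85% of HFD (4.79 to 12%) and 1.55% of ND cells (0.626 to 3.17%) after thinning, against 0.314% of HFD and 0.306% of ND other kept cells. Its log2 ratio in the other kept cells was -0.04, and CD8 T cells held 7 HFD and 2 ND UMIs. Klrg1 is also a group 2 innate lymphoid marker, and its log2 ratio ran from 1.76 to 2.13 over all alternatives, which include leaving out cells with 3 or more markers of that list. Of the other group 2 markers, Hes1 was called higher in all gated cells (27 HFD and 23 ND UMIs, log2 ratio 1.23) and in lineage-clean cells (25 HFD and 9 ND, 2.34). Il1rl1 was called lower in all gated cells, where 6 of 7 measured group 2 markers had log2 ratios above 0 (median 0.26). All 6 group 2 markers measured in lineage-clean cells had log2 ratios above 0 (median 0.43). The list stood at 685 CPM in HFD and 496 CPM in ND in lineage-clean cells. Gata3 was in 42.2% of HFD and 32.6% of ND lineage-clean cells, unthinned. The part of group 2 cells in these values was not tested beyond leaving them out. Klrc1 (NKG2A) with 454 HFD and 762 ND UMIs (log2 ratio 0.25) and its partner Klrd1 (CD94) with 892 HFD and 1666 ND (0.10) were not called. Klra2, Tigit, Lag3, Pdcd1 and Havcr2 lay under 20 UMIs, and Klrb1d is not in either table.

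**Figure D3:**
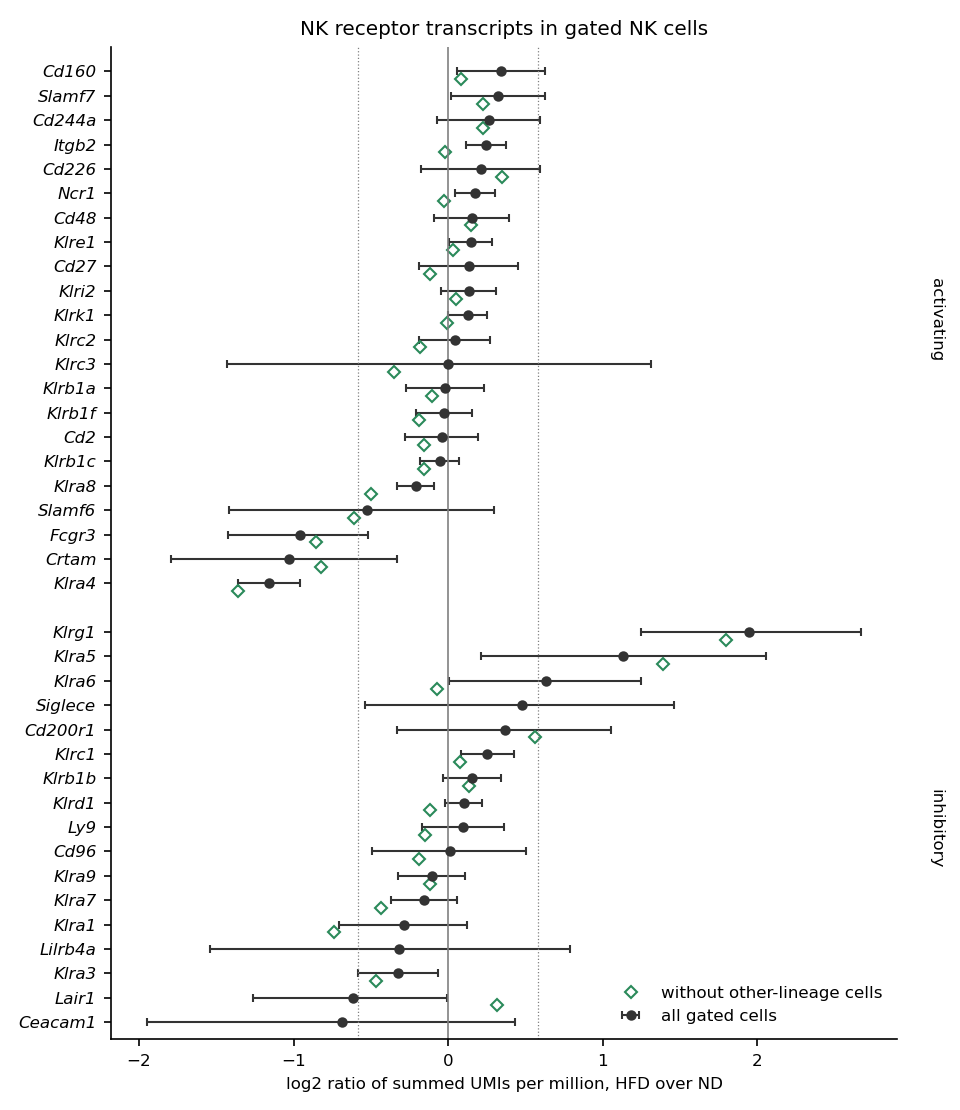
log2 ratio of summed CPM, HFD over ND, for activating (top) and inhibitory (bottom) NK receptor genes with at least 20 UMIs; black points with 95% counting intervals are all gated cells, green diamonds lineage-clean cells where at least 20 UMIs remain, and dotted lines mark 1.5-fold. Klra4 lies at a log2 ratio of -1.16 and Klrg1 at 1.95, with most other receptors within 1.5-fold.

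The adapters that carry receptor signals were close to even in all gated cells. Tyrobp (DAP12) had 1361 HFD and 3008 ND UMIs (log2 ratio -0.14), Fcer1g, the adapter of CD16 and NKp46, 1585 HFD and 3193 ND (-0.01), and Hcst (DAP10), the adapter of NKG2D, 327 HFD and 670 ND (-0.03). Of 28 signalling genes, 2 were higher, the T and NK adapter Lat (66 HFD and 88 ND UMIs, log2 ratio 0.59) and the phospholipase Plcg2 (98 HFD and 126 ND, 0.64), and 0 lower, with a median log2 ratio of -0.021. Lat was also higher in lineage-clean cells (log2 ratio 0.61) and Plcg2 was not called there (0.46). In lineage-clean cells Tyrobp was at 1352 CPM in HFD and 1707 CPM in ND. Fcer1g was at 1551 CPM in HFD and 1788 CPM in ND there, and neither adapter was called.

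Among 25 cytokine receptor and JAK-STAT genes, 1 was higher and 0 were lower, with a median log2 ratio of 0.029. The IL-15 receptor chains Il2rb (1994 HFD and 3854 ND UMIs, log2 ratio 0.05) and Il2rg (556 HFD and 1066 ND, 0.06) and the IL-18 receptor chain Il18r1 (354 HFD and 727 ND, -0.04) were close to even. Il6ra was the 1 higher gene (36 HFD and 43 ND UMIs, log2 ratio 0.75), and lineage-clean cells held only 6 HFD and 1 ND UMIs of it.

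The factors that define NK cells were within 1.5-fold. Eomes had 404 HFD and 818 ND UMIs (log2 ratio -0.02, -0.19 to 0.16), Tbx21 170 HFD and 285 ND (0.26, -0.03 to 0.54) and Id2, an inhibitor of E proteins that NK cells require, 1365 HFD and 2565 ND (0.09). Of 28 measured regulators, 1 was higher, Zeb2, a zinc finger factor of terminal NK maturation (105 HFD and 132 ND UMIs, log2 ratio 0.67, 0.29 to 1.05). Its log2 ratio was 0.60 (-0.02 to 1.21) in lineage-clean cells and was not called there. In those cells Ikzf2 (Helios) was the 1 higher gene (103 HFD and 122 ND UMIs, log2 ratio 0.63).

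Some genes of mature NK cells were higher in HFD. Of 20 mature NK genes, 6 were higher in HFD and 0 lower: Itgam, Klrg1, Cx3cr1, Zeb2, Cma1 and S100a6. Only Klrg1, Cx3cr1 and Cma1 were higher in lineage-clean cells, where the median log2 ratio was -0.038 against 0.114 in all gated cells. Cx3cr1, the fractalkine receptor of mature NK cells and monocytes, had 38 HFD and 27 ND UMIs (log2 ratio 1.5, 0.74 to 2.26), and 26 HFD and 5 ND in lineage-clean cells (3.25, 1.84 to 4.99). Cma1, a chymase gene transcribed in mature mouse NK cells, had 37 UMIs in each library (log2 ratio 1.00, 0.30 to 1.7) and 30 in each in lineage-clean cells (0.87). Itgam (CD11b) had 170 HFD and 217 ND UMIs (log2 ratio 0.65, 0.35 to 0.95) and 0.56 in lineage-clean cells, just under 1.5-fold. S100a6 had 666 HFD and 801 ND UMIs (log2 ratio 0.74) and 0.34 in lineage-clean cells. Myeloid cells express several of these genes, and in the other kept cells the log2 ratio was 0.50 for S100a6, 0.37 for Itgam and 0.52 for Cx3cr1. After thinning, Cx3cr1 was in 3.31% of HFD and 0.67% of ND NK cells, below the 8.26% of HFD and 5.53% of ND other kept cells.

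Of 18 immature NK genes, 1 was higher (Cd69) and 1 lower (Kit), with a median log2 ratio of 0.152, and in lineage-clean cells 0 were higher and 0 lower, with a median log2 ratio of -0.122. Cd27, the marker of immature cells, had 128 HFD and 233 ND UMIs (log2 ratio 0.14, -0.19 to 0.45). Kit, the stem cell factor receptor that marrow progenitors also carry, had 51 HFD and 157 ND UMIs (log2 ratio -0.62) and -0.29 in lineage-clean cells. Cd69 had 49 HFD and 56 ND UMIs (log2 ratio 0.81) and -0.24 there. Emb, an adhesion molecule of early NK cells, had 668 HFD and 962 ND UMIs (log2 ratio 0.48) and was at 0.53 in lineage-clean cells.

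Each cell was then placed by its thinned UMIs of 18 mature genes, without Gzma and Ccl5, against 18 immature genes. More mature than immature UMIs were found in 47.9% of HFD (41.5 to 54.4%) and 49.4% of ND cells (44.7 to 54.2%), and more immature UMIs in 43.4% of HFD (37.0 to 49.9%) and 39.9% of ND cells (35.4 to 44.6%). The intervals overlap on both sides. This is a range and not a cell type: 22.3% of HFD and 27.1% of ND cells lay within 1 UMI of the boundary.

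The share of cells with Gzma was lower in HFD on the immature side of that range, and nearly even on the mature side. Among cells with more immature UMIs, Gzma was in 17.1% of 105 HFD cells (10.5 to 25.7%) and 36.1% of 180 ND cells (29.1 to 43.6%), with a mean of 0.724 UMIs per 1000 in HFD and 1.17 in ND. Among cells with more mature UMIs it was in 56.0% of 116 HFD cells (46.5 to 65.2%) and 55.2% of 223 ND cells (48.4 to 61.8%), with a mean of 4.78 UMIs per 1000 in HFD and 3.10 in ND. In lineage-clean cells the shares were 16.7% in HFD and 41.3% in ND on the immature side and 61.3% in HFD and 62.6% in ND on the mature side. Prf1, the perforin gene, was in 7.62% of HFD (3.35 to 14.5%) and 19.4% of ND cells (13.9 to 26.0%) on the immature side. On the mature side Prf1 was in 27.6% of HFD (19.7 to 36.7%) and 20.6% of ND cells (15.5 to 26.5%). The Prf1 intervals overlap on both sides. Over all gated cells Gzma was in 36.4% of HFD (30.3 to 42.8%) and 46.8% of ND cells (42.1 to 51.5%), against 0.136% of HFD and 0.191% of ND other kept cells, yet its summed level was 1477 CPM in HFD and 1387 CPM in ND. Since the share and the level point in opposite directions, no order is read from the share over all cells. In lineage-clean cells both were lower in HFD, at 39.2% of HFD (31.7 to 47.0%) and 52.6% of ND cells (47.0 to 58.0%), and at 2003 CPM in HFD and 2126 CPM in ND (log2 ratio -0.09, -0.18 to 0.01), a level that was not called.

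**Figure D4:**
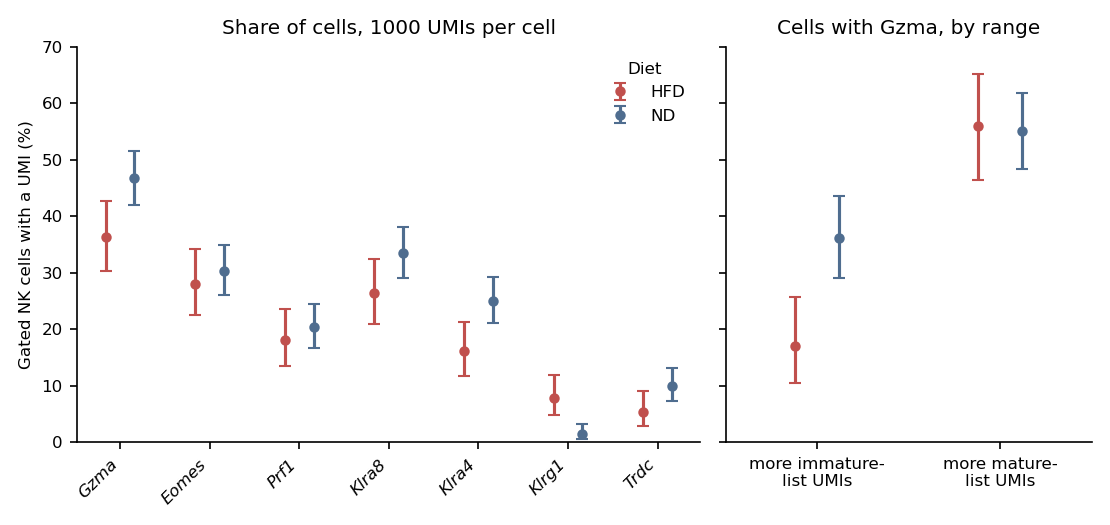
Left: share of gated NK cells with at least 1 UMI after thinning to 1000 UMIs per cell, for 7 genes, HFD left of ND; whiskers are 95% Clopper-Pearson intervals (counting error only). Right: the share with Gzma among cells with more immature-list and with more mature-list UMIs, 17.1% in HFD and 36.1% in ND on the immature side and 56.0% in HFD and 55.2% in ND on the mature side.

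Most genes of the killing machinery were within 1.5-fold. Of 21 measured granule and death ligand genes, 0 were higher and 1 was lower, with a median log2 ratio of 0.050. Gzma had 1711 HFD and 3218 ND UMIs (log2 ratio 0.09), Gzmb 166 HFD and 321 ND (0.05, -0.23 to 0.33) and Prf1 209 HFD and 397 ND (0.08, -0.17 to 0.32). The lower gene was Cst7 (cystatin F), an inhibitor of the cathepsins that activate granzymes, with 105 HFD and 332 ND UMIs, or 90.6 CPM in HFD and 143 CPM in ND (log2 ratio -0.66, -0.99 to -0.34), and 59 HFD and 171 ND UMIs in lineage-clean cells (-0.67). Fasl, the death ligand, had 43 HFD and 125 ND UMIs (log2 ratio -0.54) and was called lower in lineage-clean cells (29 HFD and 95 ND UMIs, -0.84, -1.50 to -0.23). In CD8 T cells, HFD over ND, the same genes had log2 ratios of 0.60 for Cst7, 1.15 for Fasl, 0.75 for Prf1 and 2.59 for Gzma, and the difference from NK cells was not tested. Gzmk (6 HFD and 13 ND UMIs) and Gzmc (0 HFD and 4 ND) were too sparse to measure.

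Of 13 measured effector cytokines and chemokines, 0 were higher and 3 lower, Ccl4, Ccl9 and Csf1. Ifng, the main macrophage-activating cytokine of NK cells, had 47 HFD and 72 ND UMIs (log2 ratio 0.39, -0.18 to 0.94). Ccl5 had 4736 HFD and 8254 ND UMIs (log2 ratio 0.20) and Xcl1, which attracts dendritic cells, 593 HFD and 1474 ND (-0.31). Ccl4 had 201 HFD and 611 ND UMIs (log2 ratio -0.60) and stood at -0.07 in lineage-clean cells, which kept 4 HFD and 2 ND UMIs of Ccl9, and 3 HFD and 7 ND UMIs of Csf1. Of 27 homing genes, 3 were higher (Cx3cr1, Itgam, Cd69) and 0 lower, with a median log2 ratio of 0.181 and -0.031 in lineage-clean cells. Ccr2 had 867 HFD and 2101 ND UMIs (log2 ratio -0.28), the marrow retention receptor Cxcr4 161 HFD and 220 ND (0.55) and the egress receptor S1pr1 55 HFD and 114 ND (-0.05).

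Of 24 measured type I interferon response genes, 12 were higher and 0 lower in HFD NK cells, with a median log2 ratio of 0.63, beside 3.25% higher and a median of 0.0047 over all genes. In lineage-clean cells 6 of 19 were higher and 0 lower, with a median log2 ratio of 0.50. The summed level of the whole list was 2640 CPM in HFD and 2410 CPM in ND NK cells, and 2745 CPM in HFD and 2612 CPM in ND lineage-clean cells. Ly6e, with 1808 HFD and 3919 ND UMIs and a log2 ratio of -0.11, made up most of that sum. Isg15, a ubiquitin-like protein, had 32 UMIs in HFD and 17 in ND NK cells (log2 ratio 1.91, 1.02 to 2.85), and 25 HFD and 9 ND in lineage-clean cells (2.34). Ifit1, a sensor of foreign RNA, had 29 HFD and 16 ND UMIs (log2 ratio 1.86, 0.93 to 2.84), and 19 HFD and 13 ND in lineage-clean cells (1.42). Stat2, a subunit of the factor ISGF3 that switches these genes on, had 75 HFD and 85 ND UMIs (log2 ratio 0.82, 0.35 to 1.29) and 1.01 in lineage-clean cells. Herc6, the enzyme that attaches Isg15 in the mouse, had 44 HFD and 31 ND (log2 ratio 1.51) and 1.65. Counts were low, and 1 cell held 21.9% of the HFD and 29.4% of the ND Isg15 UMIs.

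Part of the list moved in the same direction elsewhere in the marrow. Isg15 had a log2 ratio of 1.16 and Ifit1 of 0.90 in the other kept cells, and Isg15 of 1.94 in CD8 T cells. Ifit1 had 29 HFD and 1 ND UMIs in CD8 T cells (log2 ratio 4.70, 2.11 to 10.05). Oasl2 had 19 HFD and 12 ND UMIs in NK cells (log2 ratio 1.67, 0.55 to 2.84) and stood at 1.09 in the other kept cells. Ifi44 had 22 HFD and 6 ND UMIs in NK cells (log2 ratio 2.88, 1.53 to 4.47) and stood at 0.63 in the other kept cells. Lineage-clean cells held only 5 HFD and 4 ND UMIs of Oasl2, and 9 HFD and 2 ND of Ifi44. Herc6 and Stat2 had log2 ratios of 0.04 each in the other kept cells, and 0.15 and 0.30 in CD8 T cells. Irf7 (39 UMIs in each library, log2 ratio 1.00), Rtp4 (41 HFD and 42 ND, 0.97) and Bst2 (42 HFD and 50 ND, 0.75), a tether of budding virus, stood at 0.44, 0.88 and 0.09 in the other kept cells. The difference between NK cells and the rest was not tested.

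The sequences before the start sites of Isg15 and Ifit1 show the element these genes share. They are the 250 RefSeq bases of GRCm38.p6 from chr4:156200819-156201068 on the minus strand for Isg15 and from chr19:34640639-34640888 on the plus strand for Ifit1, 5′ to 3′, with motif matches in capitals.
Isg15: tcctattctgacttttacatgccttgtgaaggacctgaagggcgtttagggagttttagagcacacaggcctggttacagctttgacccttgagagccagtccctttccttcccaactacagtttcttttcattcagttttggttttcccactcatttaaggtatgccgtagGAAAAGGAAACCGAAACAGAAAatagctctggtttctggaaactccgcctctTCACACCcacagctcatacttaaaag
Ifit1: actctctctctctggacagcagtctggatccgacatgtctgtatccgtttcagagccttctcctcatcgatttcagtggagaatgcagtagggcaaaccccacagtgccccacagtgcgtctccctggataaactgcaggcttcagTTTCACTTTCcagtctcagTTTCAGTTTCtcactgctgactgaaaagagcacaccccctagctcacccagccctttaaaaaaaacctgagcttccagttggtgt
Isg15 has 3 overlapping matches to the interferon motif 78 to 57 bases before its start and 1 T-box match 26 to 20 bases before it. Ifit1 has 2 matches to it, 104 to 95 and 85 to 76 bases before its start, on the other strand. That motif is in 3.04% of all promoters searched. A match is a description of the letters, and binding was not measured.

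Metabolic genes gave single differences. Of 32 measured genes of fatty acid uptake, storage and oxidation, 3 were higher (Lpl, Cpt1a, Acot1) and 2 lower (Acsl1, Plin3), with a median log2 ratio of 0.181. In lineage-clean cells 2 of 20 were higher (Fabp5, Cpt1a) and 0 lower. Cpt1a, which admits long-chain fatty acids to mitochondria, had 189 UMIs in HFD and 217 in ND NK cells, or 163 CPM in HFD and 93.5 CPM in ND (log2 ratio 0.80, 0.51 to 1.09), and 0.61 in lineage-clean cells. Its log2 ratio was 0.81 in CD8 T cells and 0.58 in the other kept cells. Acot1, a fatty acid thioesterase, had 15 HFD and 7 ND UMIs (log2 ratio 2.10), of which lineage-clean cells held 2 HFD and 1 ND, and its log2 ratio was 1.80 in the other kept cells. Fabp5, a fatty acid binding protein, had 71 HFD and 106 ND UMIs (log2 ratio 0.42), and 34 HFD and 17 ND in lineage-clean cells (1.87, 0.99 to 2.80).

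Of 23 genes of cholesterol and fatty acid synthesis, 0 were higher and 4 lower, among them Sqle, Stard4 and Srebf1, with a median log2 ratio of -0.261. In lineage-clean cells 0 were lower and 1 higher, with a median log2 ratio of -0.153. Srebf1, the lipogenic transcription factor, had 21 HFD and 92 ND UMIs (log2 ratio -1.13) and -0.74 in lineage-clean cells. Of 28 glycolysis, transport and mTOR genes, Slc7a5, a carrier of large amino acids, was higher (43 HFD and 55 ND UMIs, log2 ratio 0.65; 1.46 in lineage-clean cells) and Hk2 lower (10 HFD and 79 ND UMIs, -1.98), of which lineage-clean cells held 2 HFD and 6 ND UMIs.

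The widest ratios among the 22 gene lists of NK and general cell functions were in heat shock genes. Hspa1a and Hspa1b, the inducible Hsp70 genes, had 54 HFD and 8 ND UMIs (log2 ratio 3.76, 2.68 to 5.04) and 174 HFD and 24 ND (3.86, 3.24 to 4.54). The other kept cells had log2 ratios of 3.73 and 3.62, and lineage-clean cells 2.72 and 3.92. Cirbp, a cold-inducible RNA-binding protein, had 60 HFD and 202 ND UMIs (log2 ratio -0.75, -1.19 to -0.33), with -1.03 in lineage-clean cells, -0.81 in CD8 T cells and -0.57 in the other kept cells. Of 31 measured immediate early and heat shock genes, 4 were higher (Nr4a1, Dusp2, Hspa1a, Hspa1b) and 3 lower (Egr1, Egr2, Egr3) in all gated cells, with a median log2 ratio of 0.226. In lineage-clean cells 7 of 30 were higher (Jun, Nr4a1, Dusp1, Hspa1a, Hspa1b, Hsp90aa1, Hsph1) and 0 lower, 27 lay above 0 and the median log2 ratio was 0.302. Jun had a log2 ratio of 0.14 in all gated cells (392 HFD and 710 ND UMIs) and 0.96 in lineage-clean cells (212 HFD and 199 ND), and Egr1 of -1.53 (57 HFD and 329 ND) and 0.02 (35 HFD and 63 ND). The labels describe no handling beyond marrow isolation. The part of these genes in the ratios of other genes was not tested.

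Cycling cells were a small part of the gate. After thinning, at least 2 UMIs over Mki67, Top2a, Cdk1, Ccnb1, Birc5 and Cenpf were found in 9.92% of HFD (6.46 to 14.4%) and 7.76% of ND cells (5.47 to 10.6%), and in 7.23% of HFD and 4.23% of ND lineage-clean cells. Without thinning, the same rule found 15.3% of HFD and 15.5% of ND NK cells, and these held 42.3% of HFD and 42.8% of ND NK UMIs. Of 26 S phase genes, 0 were higher and 1 lower in all gated cells (median log2 ratio 0.055), and 10 of 24 were higher in lineage-clean cells (median 0.477). Of 30 G2 and M genes 2 were higher (median log2 ratio 0.128), and 6 of 27 in lineage-clean cells (0.184). In lineage-clean cells the cells found without thinning, 19 HFD and 30 ND, held 31.1% of HFD and 20.9% of ND UMIs.

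Ranked over 3022 genes with at least 200 UMIs, many of the extremes of all gated cells were genes of granulocytes and other marrow lineages. The 10 lowest in HFD were Fcer1a, Ms4a2, Mcpt8, Cpa3, Prss34, Gata2, Mt2, Car1, Ms4a3 and Cd63, of which the first 6 are genes of basophils and mast cells. Mcpt8, a basophil protease, had 144 HFD and 3108 ND UMIs (log2 ratio -3.43), of which lineage-clean cells held 3 HFD and 10 ND. The 10 highest were Epx, Lcn2, Ltf, Ngp, Prg2, Wfdc21, Mmp8, Lyz2, Apoe and Tspo. Epx and Prg2 encode eosinophil granule proteins, and 1 cell held 98.3% of the HFD and 99.0% of the ND Epx UMIs. Prg2 was also called higher in lineage-clean cells (80 HFD and 26 ND UMIs, log2 ratio 2.49, 1.84 to 3.19), where 1 cell held 56.2% of the HFD and 15.4% of the ND UMIs. Ngp, a neutrophil granule gene, had 1035 HFD and 717 ND UMIs (log2 ratio 1.53), of which lineage-clean cells held 14 HFD and 19 ND. Tspo, a mitochondrial outer membrane protein, was called higher in all gated and in lineage-clean cells: 167 HFD and 179 ND UMIs (log2 ratio 0.90, 0.59 to 1.21), 97 HFD and 91 ND in lineage-clean cells (0.96), and 0.81 in the other kept cells.

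The same ranking in lineage-clean cells, made after these values were seen, put Klra4, Adamts14, Dusp6, Rbpms, Zfp512, Cst7, Ep400, Grina, Fam204a and Lgals9 lowest. Adamts14, a secreted metalloprotease, had 66 HFD and 219 ND UMIs in all gated cells (log2 ratio -0.73) and 50 HFD and 169 ND in lineage-clean cells (-0.89, -1.37 to -0.42). Dusp6, a phosphatase of ERK, had 84 HFD and 269 ND (log2 ratio -0.68) and 52 HFD and 169 ND (-0.83). The 10 highest included Jun, Paics, Ranbp1, Rgs1, Snw1 and the cell cycle genes Ube2c, Cks2, Birc5 and Pclaf. For these cell cycle genes, in that order, the most heavily loaded HFD cell held 37.1%, 24.3%, 18.35% and 27.8% of the lineage-clean UMIs. The most heavily loaded ND cell held 20.8%, 20.9%, 13.9% and 13.5%. Rgs1, a brake on chemokine receptor signalling, had 120 HFD and 129 ND UMIs in lineage-clean cells (log2 ratio 0.77, 0.39 to 1.14) and stood at 1.12 in CD8 T cells.

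Trdc, the delta chain constant gene that NK cells can transcribe without a rearranged receptor, was lower in HFD. It had 56 UMIs in HFD and 248 in ND NK cells (log2 ratio -1.15, -1.59 to -0.72), and 42 HFD and 201 ND in lineage-clean cells (-1.39). It was found in 5.37% of HFD (2.89 to 9.01%) and 9.98% of ND cells (7.37 to 13.1%) after thinning, and these intervals overlap. Among the other kept cells it was found in 0.648% of HFD and 0.789% of ND cells. Trdc was outside the rule for named genes and was chosen after its values were seen.

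**Figure D5:**
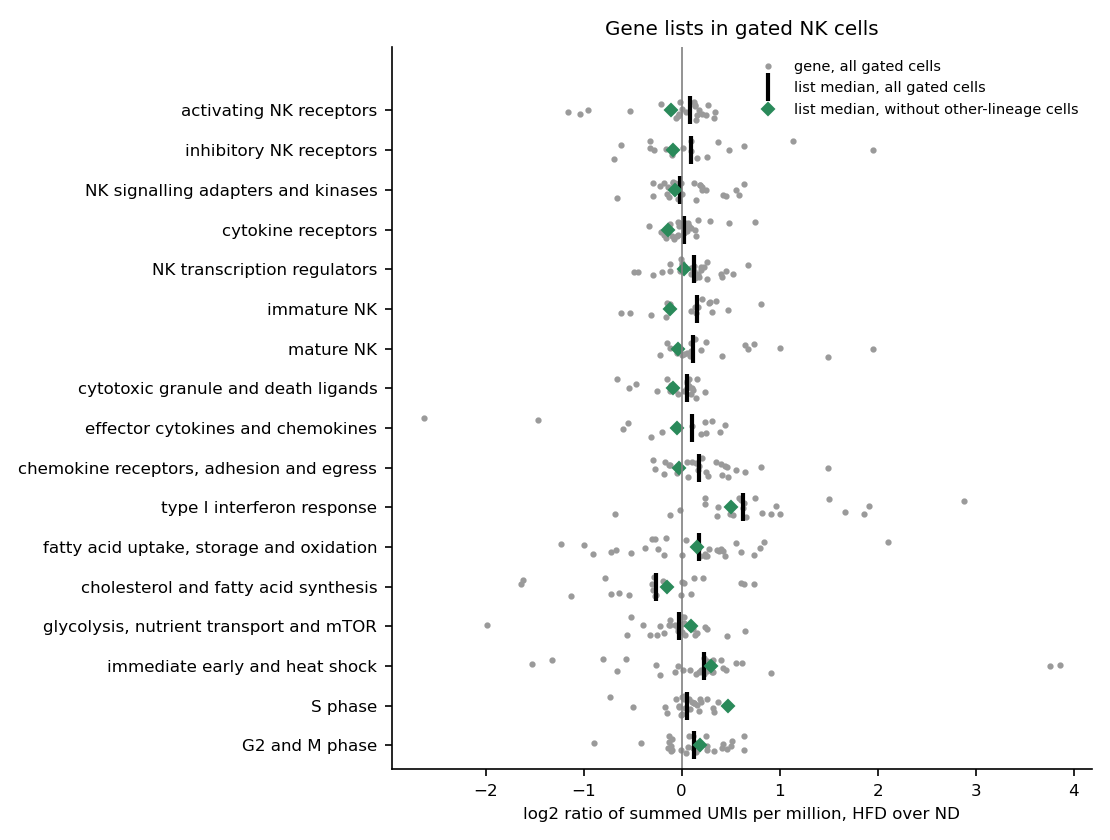
log2 ratio of summed CPM, HFD over ND, of each list member with at least 20 UMIs (grey points, spread vertically for view), with the list median in all gated cells (black bar) and in lineage-clean cells (green diamond). The type I interferon list lies farthest to the right (log2 medians 0.63 and 0.50), while the receptor, cytokine receptor and granule lists centre near 0.

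Antibody tags gave a protein readout that the gate had not used. The CD16_CD32 tag, which marks the low-affinity IgG receptors, had a median of 3 molecules per HFD and 5 per ND NK cell, and 2 per HFD and 4 per ND lineage-clean cell. In the other kept cells the same tag had a median of 14 in HFD and 19 in ND. All 5 tags together had a median of 6 per HFD and 9 per ND NK cell, and 28 per HFD and 46 per ND other kept cell. The medians of this tag were lower in HFD in NK cells and in the other kept cells. In NK cells CD16_CD32 made up 31.2% of HFD and 52.1% of ND tag molecules (28.1% of HFD and 56.7% of ND in lineage-clean cells), against 62.2% of HFD and 59.8% of ND tag molecules in the other kept cells. The mean went the other way from the median in lineage-clean cells: CD16_CD32 averaged 7.55 molecules in HFD and 6.97 in ND there, and the Ly-6A_Ly-6E tag 7.03 in HFD and 1.22 in ND, so the share of CD16_CD32 was lower there without a lower mean of its own.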

How the data were processed

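Bone marrow cells of 2 libraries were profiled on the BD Rhapsody system. The deposited tables hold UMI counts per cell and gene, written per the file headers by the BD WTA Rhapsody Analysis Pipeline 1.9.1, with 5 antibody tags, and the genome build is not given in the sources used here. The authors' counts were used unscaled: values were whole, and 0 columns belonged to other samples. Symbols numbered 24014 in either table and 20478 in both. Members, lists and comparisons were chosen with earlier results of these data known.

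UMIs were summed over gated cells per library and scaled to 1000000 (CPM), with Python 3.11.15, pandas 2.3.3, numpy 2.4.6 and scipy 1.17.1. Ratios have exact conditional binomial intervals and shares have Clopper-Pearson intervals, and a count of 0 would stand at a floor of 3 UMIs. The ratio and interval code was tested on simulated data. Doublets were kept, and cells called by Scrublet in scanpy 1.11.5 (expected rate 5%) were left out as an alternative.

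Genes named are the 10 highest and 10 lowest ratios among genes with at least 200 UMIs, leaving out mitochondrial, ribosomal, haemoglobin, immunoglobulin, T cell receptor, numbered-model and gate genes and those under 10% of the level in other kept cells, up to 4 members per list by size of ratio, and Eomes, Tbx21, Gzma, Gzmb, Prf1, Ifng, Cd27, Itgam and Klrg1. Other members were named for their role. A few genes that these rules name are not reported here. Identity genes were ranked with a pseudocount of 10 CPM among genes seen in at least 10% of NK cells. Alternatives changed the cell filter, gate, doublets, depth, scaling, minimum UMIs and cells kept. Figures were drawn with matplotlib 3.10.9.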

Additional observations from a re-analysis of the deposited data

How the results depend on the processing

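No paired analysis was possible because each diet has 1 library. The NK share ratio of 0.490, HFD over ND, was 0.395 without cells holding 3 or more markers of any of the 12 other lists and 0.711 out of NK and T cells. All gated cells gave 311 genes called higher and 347 lower. The same rule called 115 higher and 98 lower after thinning before the gate, and 135 and 152 at a minimum of 100 UMIs. With the mean over cells of per-cell CPM, 477 were called higher and 549 lower. There the interval of the summed UMIs was moved to the new ratio, and it does not measure the error of such a mean. The number lower was 182 in lineage-clean cells and 146 without cells of any other list. The median of the mature list (0.114) was 0.0030 without Scrublet doublets and -0.038 in lineage-clean cells, that of the activating receptors (0.085) -0.075 and -0.108, and that of the interferon list (0.63) 0.355 without cells of any other list. The S phase median (0.055) was 0.235 without Scrublet doublets, -0.21 without cycling cells, 0.477 in lineage-clean cells and -0.038 after thinning. With a difference of at least 2 UMIs needed, 35.5% of HFD and 31.7% of ND cells were on the immature side and 41.2% of ND cells on the mature side, and 56.1% of ND cells were on the mature side unthinned.

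Over 124 named genes, 1251 values under alternatives kept their call or stayed uncalled, 105 lost a call, 70 gained one and 27 reversed sign. A reversal was counted where the main or the alternative value was called, so the value after it need not be a call. Reversals were, in lineage-clean cells, Cd69 -0.24, Cpa3 1.79, Egr1 0.022, Kif23 -0.15 and Klra6 -0.071; without cells of any other list, Ccl4 0.28, Cd69 -0.32, Kif23 -0.89, Klra6 -0.97 and Prss34 0.000014. After thinning they were Cd69 -0.19, Egr1 0.81, Kit 0.52, Lyz2 -0.59, Mcpt8 2.52, Mmp8 -0.93, Ngp -0.64 and Prss34 3.39. Without cycling cells they were Apoe -0.012, Kit 0.048 and Prg2 -0.044. With the receptors and Nkg7 at 2 or more UMIs each they were Kif23 -0.042, Mmp8 -0.11 and Prg2 -1.40, with 5 of 17 NK genes Kif23 -0.012 and Prg2 -1.31, and with the mean over cells Kif23 -0.032. The cause of these changes was not tested. Klra4 kept a ratio between -1.36 and -0.89, Klrg1 between 1.76 and 2.13 and Hspa1b between 3.02 and 4.10. Depth limits genes of under 20 UMIs, and Isg15 was seen in 1.65% of HFD and 1.11% of ND cells after thinning.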
